A study of Homo sapiens with 9 samples.

Results

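MMD, CEP20, SLC49A4 and LIMCH1 are 4 of the 14884 genes measured in ZR-75-1, a breast cancer cell line that expresses the estrogen receptor. They were picked from the measured values, because each stood steadily lower on arrays of cells given a mimic of miR-150-5p than on control arrays. The array platform's annotation pairs each of the 4 symbols with 1 probeset, so no choice between probesets was needed. Cells received a lipid transfection reagent (Lipofectamine RNAiMAX) that carried the miR-150-5p mimic at 50 nM, a non-specific negative control RNA at 50 nM, or nothing (mock). All 9 samples came from the same cell line, grown in the same serum-supplemented medium, which was replaced 24 h after transfection, and RNA was taken at 48 h. Each of the 3 groups has 3 Affymetrix Human Gene 2.0 ST arrays, and the study's stated aim was to bring this microRNA back into such a line. The labels do not say whether the triplicate transfections were independent experiments, so the p-values reflect only the spread among these samples, which may be technical.

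A microRNA is loaded into an Argonaute protein and pairs through its seed with messenger RNAs, mostly downstream of the coding sequence, which lowers their translation and stability. A mimic is a synthetic RNA that supplies the mature strand. The 4 genes belong to different parts of the cell. MMD encodes a multi-pass membrane protein of the progestin and adipoQ receptor (PAQR) family and was named for monocyte to macrophage differentiation. CEP20, formerly FOPNL, encodes a small protein of the centrosome and of centriolar satellites that is needed to form primary cilia. SLC49A4, formerly DIRC2, encodes a transporter of the lysosomal membrane, and LIMCH1 encodes an actin-associated protein with a calponin homology (CH) and a LIM domain that activates nonmuscle myosin II in human cells.

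To show where transcription of the 4 genes starts, the 150 bases just before their RefSeq starts are printed (GRCh38.p14, each read 5′ to 3′ along the gene's strand). Capitals mark GC boxes (GGGCGG or its complement CCGCCC) and CCAAT boxes (CCAAT or its complement ATTGG), searched on both strands. For LIMCH1 the reference gives 4 start windows, and the one at the outermost start is shown. Which start is used in these cells was not measured.
MMD, chr17:55421836-55421985, minus strand: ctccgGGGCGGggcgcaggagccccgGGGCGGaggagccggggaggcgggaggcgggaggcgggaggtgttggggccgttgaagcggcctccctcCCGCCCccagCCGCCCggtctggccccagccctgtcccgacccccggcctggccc
CEP20, chr16:15888604-15888753, minus strand: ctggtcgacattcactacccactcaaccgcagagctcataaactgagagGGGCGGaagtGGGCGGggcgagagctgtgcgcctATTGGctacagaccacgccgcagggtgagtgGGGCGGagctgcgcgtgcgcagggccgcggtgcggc
SLC49A4, chr3:122794919-122795068, plus strand: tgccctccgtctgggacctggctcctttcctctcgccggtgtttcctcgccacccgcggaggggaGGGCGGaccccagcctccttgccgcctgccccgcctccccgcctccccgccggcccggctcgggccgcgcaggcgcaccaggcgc
LIMCH1, chr4:41359457-41359606, plus strand: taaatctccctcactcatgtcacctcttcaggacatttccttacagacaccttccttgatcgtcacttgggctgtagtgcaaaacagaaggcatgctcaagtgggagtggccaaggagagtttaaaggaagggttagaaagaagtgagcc

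The MMD window holds 4 GC boxes, the CEP20 window 3 and the SLC49A4 window 1, while the LIMCH1 window holds 0. A CCAAT box occurs in the CEP20 window alone among these 4. Of 35116 windows of the same length in the reference, 36.8% hold a GC box and 23.5% a CCAAT box. The G and C share was 82.7% for MMD, 67.3% for CEP20, 78.7% for SLC49A4 and 47.3% for LIMCH1, beside a median of 60.0% over all windows. These letters describe the windows and do not show binding of any factor.

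On the log2 scale the median probeset of an array lay between 4.22 and 4.27. Mock replicate 3 correlated no better with its own group than with the other arrays (mean r = 0.9935 and 0.9937), and the same held for mimic replicate 2 (0.9940 and 0.9941). Of 10 luminal markers 9 were measured, and their mean lay from 9.91 to 10.00 on mimic, from 9.73 to 9.81 on negative control and from 9.76 to 9.87 on mock arrays. Of the 9, ESR1 and PGR, the estrogen and progesterone receptors, passed limma's test as higher against both controls, where 0.551% of all genes passed against the negative control and 0.302% against mock. With 1 array left out these calls were lost in most fits. The limma adjusted p of ESR1 was then from 0.0304 to 0.119 against the negative control and from 0.0691 to 0.178 against mock. That of PGR was from 0.0304 to 0.0965 and from 0.044 to 0.103. The log2 differences moved little, from 0.43 to 0.51 and from 0.42 to 0.48 for ESR1, and from 0.53 to 0.65 and from 0.60 to 0.67 for PGR. The 3 measured fibroblast markers averaged from 3.18 to 3.33 on mimic, from 3.14 to 3.26 on negative control and from 3.27 to 3.45 on mock arrays. One of them, LUM, lay lower on mimic and on negative control arrays than on mock arrays (log2 differences of -0.32 ± 0.14 and -0.34 ± 0.14, SE). Its mimic arrays lay wholly below the mock arrays, as for 5.44% of all genes. LUM did not pass in either comparison (limma adjusted p = 0.454 and 0.976). The 4 measured endothelial markers averaged from 3.83 to 3.97 on mimic arrays, against 3.64 to 3.76 on negative control and 3.61 to 3.73 on mock arrays. In either comparison of the mimic 0 of the 4 passed limma's test. PECAM1 alone had an unadjusted p under 0.05 in each, as had 12.6% and 10.7% of all genes. This dim gene, with a mean of 2.84, differed by 0.47 ± 0.17 (SE) from the negative control and by 0.59 ± 0.17 from mock. The 3 leukocyte markers averaged from 4.15 to 4.35 on mimic, from 4.23 to 4.36 on negative control and from 4.26 to 4.49 on mock arrays. The table holds no background value, so a level of 0 cannot be read from it, and the part of these differences in the results was not tested.

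MMD showed the widest separation between mimic and negative control of the 4 genes. Its log2 values were 6.04, 5.88 and 5.86 on the mimic arrays, 6.98, 6.94 and 7.02 on the negative control arrays, and 6.41, 6.48 and 6.67 on the mock arrays. The 3 groups did not overlap, and mock lay between the other two. Mimic arrays wholly below the other group were found for 8.01% of all genes against the negative control and for 5.44% against mock. The mimic mean was 5.92 ± 0.10 against 6.98 ± 0.04 in the negative control (SD, n = 3 each), a log2 difference of -1.05 ± 0.09 (SE), which leaves 48.2% of the negative control's linear signal. Against mock, with a mean of 6.52 ± 0.14 (SD, n = 3), the difference was -0.60 ± 0.09, which leaves 66.2%. A lower array signal cannot tell fewer expressing cells from less RNA per cell.

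CEP20, the centrosomal protein, separated from both controls by similar amounts. Its log2 values were 8.45, 8.58 and 8.33 on the mimic arrays, 9.40, 9.38 and 9.46 on the negative control arrays, and 9.23, 9.14 and 9.41 on the mock arrays. Every mimic array lay below every control array, while mock replicate 3 reached into the range of the negative control. The mimic mean of 8.45 ± 0.12 compared with 9.41 ± 0.04 in the negative control and 9.26 ± 0.14 in mock (SD, n = 3 each). The log2 difference was -0.96 ± 0.09 (SE) against the negative control and -0.80 ± 0.09 against mock, leaving 51.4% and 57.3% of the linear signal.

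SLC49A4, the lysosomal transporter, had nearly the same pattern as CEP20. Its log2 values were 7.40, 7.58 and 7.51 on the mimic arrays, 8.46, 8.40 and 8.44 on the negative control arrays, and 8.14, 8.30 and 8.44 on the mock arrays. The mimic arrays were again below all 6 control arrays, and mock replicate 3 was as high as the negative control. The mimic mean was 7.50 ± 0.09, the negative control mean 8.44 ± 0.03 and the mock mean 8.29 ± 0.15 (SD, n = 3 each). The log2 difference was -0.94 ± 0.09 (SE) against the negative control and -0.80 ± 0.09 against mock, which leaves 52.2% and 57.5% of the linear signal.

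LIMCH1, the activator of nonmuscle myosin II, had the smallest difference of the 4 genes and the tightest mimic arrays. Its log2 values were 5.64, 5.60 and 5.59 on the mimic arrays, 6.46, 6.25 and 6.41 on the negative control arrays, and 6.09, 6.07 and 6.17 on the mock arrays. The 3 groups did not overlap, with mock between the other two, as for MMD. The mimic mean of 5.61 ± 0.03 compared with 6.37 ± 0.11 in the negative control and 6.11 ± 0.05 in mock (SD, n = 3 each). The log2 difference was -0.76 ± 0.07 (SE) against the negative control and -0.50 ± 0.07 against mock, leaving 58.9% and 70.6% of the linear signal.

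**Figure D1:**
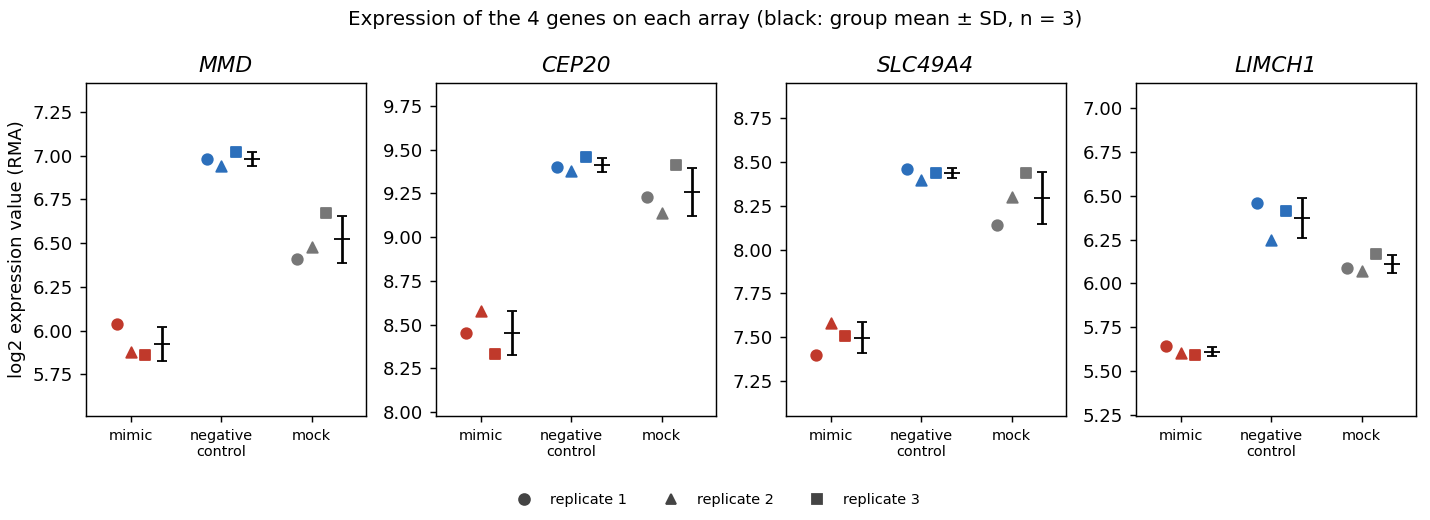
Log2 expression value (vertical axis, 1.9 log2 units in every panel) of the 4 genes on each of the 9 arrays, with marker shapes for replicates and black marks for group means ± SD (n = 3). All 3 mimic arrays lie below all 6 control arrays in each panel, and mock lies clear of the negative control for MMD and LIMCH1.

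These mimic differences chose the genes and are a description. All 4 genes were among the 52 genes lower in the mimic than in the negative control at limma's adjusted threshold (0.349% of genes tested) and among the 20 lower than in mock (0.134%). Nothing is read from these counts, because the rule used both comparisons. By size of fall against the negative control MMD ranked 9, CEP20 14, SLC49A4 15 and LIMCH1 25 of 14884 genes. Against mock the ranks were 41, 10, 12 and 81 in the same order of genes. Both comparisons use the same 3 mimic arrays.

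The distance between the lowest control array and the highest mimic array shows how the separation was built. It was 0.56 log2 units for CEP20 and SLC49A4, 0.44 for LIMCH1 and 0.37 for MMD. For MMD the lowest control array was mock replicate 1, at 6.41. All 3 mimic arrays lay below all 6 control arrays for 515 genes, or 3.46% of those tested, and a distance as wide was found for 4 genes at SLC49A4's value, 5 at CEP20's, 12 at LIMCH1's and 19 at MMD's, each count including the gene itself. The SD within groups was 0.10 for MMD, 0.11 for CEP20, 0.10 for SLC49A4 and 0.07 for LIMCH1, against 0.13 for the median gene. A steady fall was the reason for the choice, so wide distances and small SDs restate it and are no added result.

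The controls stood apart for MMD and LIMCH1 and lay closer for the other two, though no difference passed the test over all genes. The negative control stood above mock by 0.46 ± 0.09 (SE; 95% interval 0.27 to 0.65) for MMD and by 0.26 ± 0.07 (0.10 to 0.43) for LIMCH1. Their arrays did not overlap, which held in this direction for 4.77% of all genes. For CEP20 the difference was 0.16 ± 0.09 (-0.05 to 0.36) and for SLC49A4 0.14 ± 0.09 (-0.06 to 0.34), and the arrays overlapped in both. None of the 4 passed in limma's test of negative control against mock (adjusted p = 0.976 for each), in which 0 genes (0%) passed and 622 (4.18%) had an unadjusted p under 0.05. The unadjusted p was 0.000388 for MMD, 0.00587 for LIMCH1, 0.116 for CEP20 and 0.139 for SLC49A4. MMD ranked 30 of 14884 by size of rise. The genes were chosen with this difference in view, and both controls also enter the comparisons of the mimic, so these p-values are not independent of the choice. Over 19 alternatives the adjusted p of MMD was between 0.217 and 1.

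The observed order of the 4 differences therefore changed with the control. Against the negative control MMD came before CEP20, SLC49A4 and LIMCH1, while against mock CEP20 and SLC49A4 (-0.80 each) came before MMD (-0.60) and LIMCH1 (-0.50). The difference against mock was 56.5% of that against the negative control for MMD and 65.7% for LIMCH1, but 83.6% for CEP20 and 85.0% for SLC49A4, on the log2 scale. The 95% intervals against the negative control, -1.25 to -0.86 for MMD and -1.16 to -0.76 for CEP20, overlapped. Those against mock, -0.79 to -0.40 for MMD and -1.01 to -0.60 for CEP20, overlapped too. The order of the genes was not tested. Without mock replicate 3 the differences of mimic against mock were -0.52 for MMD, -0.73 for CEP20, -0.73 for SLC49A4 and -0.47 for LIMCH1. Without that array the negative control stood above mock by 0.53 for MMD, 0.23 for CEP20, 0.21 for SLC49A4 and 0.29 for LIMCH1. Without mimic replicate 2 the differences against the negative control were -1.03 for MMD, -1.02 for CEP20, -0.98 for SLC49A4 and -0.76 for LIMCH1, and those against mock -0.57, -0.87, -0.84 and -0.50 in the same order of genes.

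**Figure D2:**
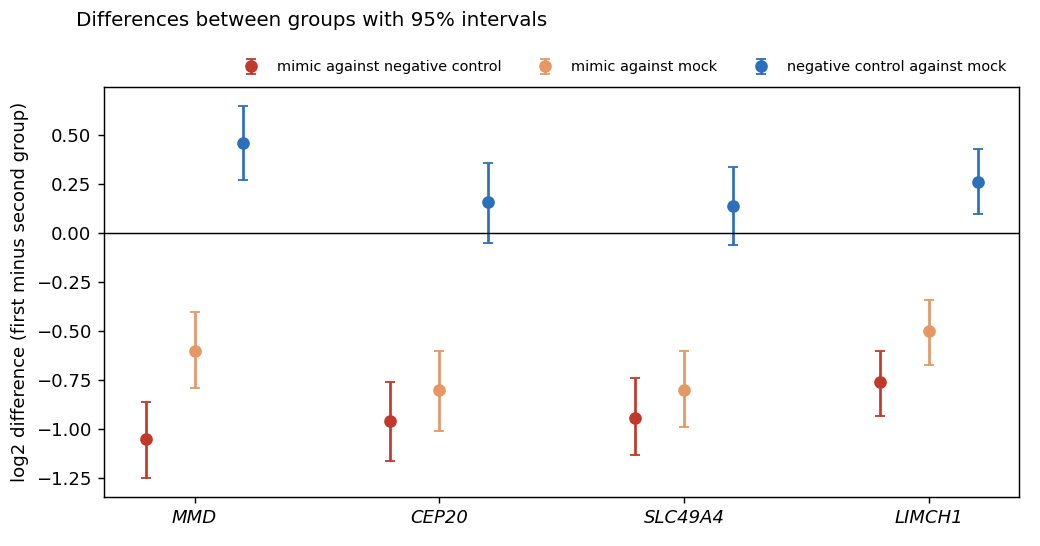
Log2 difference (vertical axis, first minus second group) with limma's 95% interval for the 4 genes in the 3 comparisons. The red and orange points are further apart for MMD (-1.05 and -0.60) and LIMCH1 (-0.76 and -0.50) than for CEP20 and SLC49A4, and the blue intervals of MMD and LIMCH1 lie above 0.

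Within groups the 4 genes deviated the same way on some arrays and not on others. Mock replicate 3 was the highest of the mock arrays for all 4, by 0.15 above the group mean for MMD and CEP20, 0.14 for SLC49A4 and 0.06 for LIMCH1. Negative control replicate 2 was the lowest of its group for all 4. Among the mimic arrays no order was shared by all 4: replicate 1 was the highest for MMD and LIMCH1, and replicate 2 for CEP20 and SLC49A4. MMD and LIMCH1 had the same order, with replicate 3 the lowest. Over the 9 arrays the correlation between members was from 0.93 to 0.98 over the 6 pairs of genes, which the group differences set. Among the 6 control arrays it was from 0.72 to 0.92, which the difference between the controls sets in part. For deviations from the group means it was from 0.31 (SLC49A4 and LIMCH1) to 0.56 (MMD and LIMCH1). These correlations describe 9 arrays that share 3 treatments and 1 joint normalization.

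**Figure D3:**
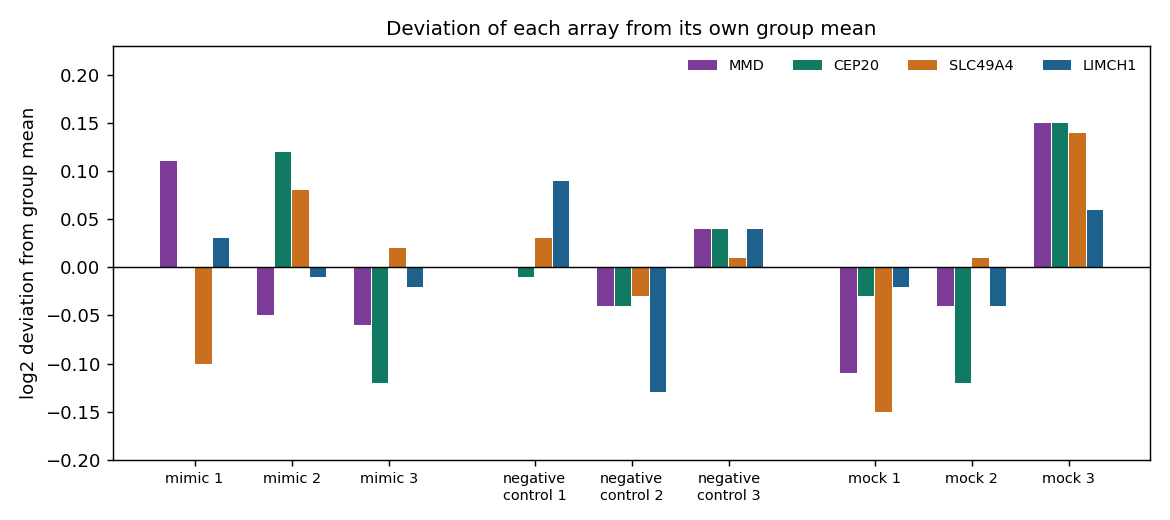
Deviation of each array from the mean of its own group (vertical axis, log2) for the 4 genes, 1 bar per gene. On mock replicate 3 all 4 bars lie above 0 and on negative control replicate 2 all 4 lie below it, while the mimic arrays show mixed signs.

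The genes with the most similar profile over the 9 arrays, by Pearson's r among 6783 brighter genes, included other members. All members were picked for a fall on the same mimic arrays, so this restates the choice and is no added result. For MMD the most similar genes were LIMCH1 (0.980), CMTM1 (0.971) and PMVK, the phosphomevalonate kinase of cholesterol synthesis (0.968). For LIMCH1 they were PMVK (0.980), MMD (0.980) and ADAM19, a membrane metalloprotease (0.969). For CEP20 they were the zinc finger and homeobox gene ZHX2 (0.984), NPR3, the clearance receptor of natriuretic peptides (0.980), and SLC49A4 (0.980). For SLC49A4 they were ADAM19 (0.987), NPR3 (0.984) and BZW2 (0.981). ADAM19 averaged 5.54 on mimic, 7.08 on negative control and 6.87 on mock arrays, a wider fall than that of any of the 4 genes. With Spearman's rank correlation 2 of the 3 names were shared for MMD, 1 for CEP20, 1 for LIMCH1 and 0 for SLC49A4.

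Within groups the correlation of deviations with CEP20 was 0.96 for ZHX2, 0.66 for NPR3 and 0.51 for SLC49A4. These deviations are part of the profiles by which the neighbours were picked, so 0.96 is no added result. PMVK, the nearest gene to LIMCH1, had 0.37 within groups. PMVK averaged 7.28 on mimic, 7.73 on negative control and 7.59 on mock arrays, with mock between the others as for LIMCH1 and MMD.

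The relatives of MMD were then examined. Of 10 other PAQR genes 9 were measured and 0 rose or fell in limma's test against the negative control, where 0.551% of all genes passed, with 1 at an unadjusted p under 0.05, which 12.6% of all genes had. The list's median log2 difference was 0.00, against 0.01 over all genes. The exception in size was ADIPOR2, an adiponectin receptor, with 7.27, 7.09 and 7.10 on the mimic arrays, 7.74, 7.85 and 7.98 on the negative control arrays and 7.67, 7.73 and 8.20 on the mock arrays. The mimic arrays lay below all control arrays, as for 3.46% of all genes. Its difference of -0.71 ± 0.14 (SE) did not pass (limma adjusted p = 0.0543), nor did -0.72 ± 0.14 against mock (adjusted p = 0.0845). It passed against the negative control when mock replicate 3 was left out (adjusted p = 0.0232), and its adjusted p was between 0.0182 and 0.224 over 19 alternatives. ADIPOR2 passed in 5 of these 19, and against mock in 2 of 19 (limma adjusted p between 0.0287 and 0.299).

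The other 8 PAQR genes had differences between -0.10 (MMD2, the closest namesake of MMD) and 0.29 (PAQR9). Both of these were dim, with means over all arrays of 3.42 for MMD2 and 3.25 for PAQR9. Of the 9 measured PAQR genes 4 lay above the median gene (5.44), and RMA compresses differences of dim probesets. PAQR4 averaged 8.42 on mimic, 8.43 on negative control and 8.45 on mock arrays. Against mock 0 of the 9 passed and 1 had an unadjusted p under 0.05, with a median of -0.05 beside 0.01 over all genes and 0.302% of all genes passing. An unadjusted p under 0.05 against mock was found for 10.7% of all genes. In human cells MMD has been linked to the arachidonate-activating enzyme ACSL4 and the acyltransferase MBOAT7, so enzymes of those families were read too. Of 12 such genes 10 were measured. Against the negative control 0 passed in limma's test (0.551% of all genes did) and 3 had an unadjusted p under 0.05 (12.6% of all genes). Against mock 0 passed (0.302% of all genes did) and 4 had an unadjusted p under 0.05 (10.7% of all genes). At these shares a count of 0 passing among 10 genes says nothing particular about the list. ACSL4 differed by -0.48 ± 0.11 (SE, limma adjusted p = 0.0845) from the negative control, and MBOAT7 by 0.16 ± 0.08 (adjusted p = 0.447). MBOAT1, a relative of MBOAT7, differed by 0.29 ± 0.07 (limma adjusted p = 0.127) and passed in 1 of 19 alternatives (0.0484). LPCAT2, a lysophosphatidylcholine acyltransferase, had the largest difference of the list, -0.54 ± 0.15 (limma adjusted p = 0.180). The list's median was -0.06 against the negative control and 0.04 against mock.

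The partners of CEP20 were read in the same way. Of 18 genes of centriolar satellites and known partners 16 were measured, 0 passed against the negative control in limma's test (0.551% of all genes did) and 2 had an unadjusted p under 0.05 (12.6% of all genes). Against mock 0 passed (0.302% of all genes did) and 4 had an unadjusted p under 0.05 (10.7% of all genes). At these shares a count of 0 among 16 genes says nothing particular about the list. The median difference was 0.01 against the negative control and 0.05 against mock. CEP43, the relative after which CEP20 was first named, differed by 0.02 ± 0.06 (SE). The satellite proteins OFD1 (0.01 ± 0.08) and KIAA0753 (0.02 ± 0.06), which form a complex with CEP20 in human cells, and the satellite scaffold PCM1 (0.01 ± 0.09) were as close to 0. The lowest p-values belonged to CCDC66 (-0.30 ± 0.07, limma adjusted p = 0.127) and TBC1D31 (-0.43 ± 0.11, adjusted p = 0.149). TBC1D31 passed in 1 of 19 alternatives.

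The relatives of SLC49A4 were 3 genes, of which FLVCR1, known as a heme and choline transporter, and SLC49A3 were measured. FLVCR1 differed from the negative control by -0.03 ± 0.08 (SE) and SLC49A3 by 0.06 ± 0.07, and neither passed in limma's test. Neither had an unadjusted p under 0.05. Of 20 lysosomal membrane genes 9 were measured. Against the negative control 0 passed (0.551% of all genes did) and 2 had an unadjusted p under 0.05 (12.6% of all genes). Against mock 0 passed (0.302% of all genes did) and 3 had an unadjusted p under 0.05 (10.7% of all genes). At these shares a count of 0 passing among 9 genes says nothing particular about the list. The median difference was 0.03 against the negative control and 0.05 against mock. MCOLN1, a cation channel of lysosomes, differed by 0.38 ± 0.10 (limma adjusted p = 0.169) and SLC66A1, a lysosomal exporter of cationic amino acids, by 0.26 ± 0.07 (adjusted p = 0.138). SLC66A1 passed against the negative control in 1 of 19 alternatives (limma adjusted p = 0.0391). LAMP1 (0.03 ± 0.06) and LAMP2 (-0.01 ± 0.10), abundant proteins of the lysosomal membrane, did not pass.

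SLC49A4 has been reported to move the vitamin B6 form pyridoxine out of lysosomes, and of 5 genes of vitamin B6 metabolism 1 was measured. That gene, PLPBP, which binds pyridoxal phosphate, had log2 values of 8.93, 9.10 and 8.99 on the mimic arrays, 9.66, 9.42 and 9.39 on the negative control arrays and 9.37, 9.37 and 9.40 on the mock arrays. Its 3 mimic arrays lay below all 6 control arrays, as for 3.46% of all genes. It fell by 0.49 ± 0.09 (SE) against the negative control (limma adjusted p = 0.0491), which is at the threshold. The adjusted p was between 0.0155 and 0.173 over 19 alternatives, and the call was lost when any 1 of the 9 arrays was left out (0.0589 to 0.137). Against mock the difference of -0.38 ± 0.09 did not pass (adjusted p = 0.155).

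The relatives and targets of LIMCH1 were thinly covered. Of 6 genes with both a CH and a LIM domain 3 were measured, and LMO7, its closest relative, differed by -0.03 ± 0.09 (SE) from the negative control. MICALL1 and MICALL2, adaptors of endosomes and of cell junctions, differed by 0.05 ± 0.12 and 0.09 ± 0.12, and 0 of the 3 passed or had an unadjusted p under 0.05 in limma's test. Over all genes 0.551% passed against the negative control and 12.6% had an unadjusted p under 0.05. Of 14 genes of nonmuscle myosin II and its regulators 2 were measured. The small GTPase RHOA differed by -0.10 ± 0.07 and the myosin kinase MYLK by 0.03 ± 0.09, and neither passed or had an unadjusted p under 0.05. Genes without a named probeset in the annotation were not analysed here.

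**Figure D4:**
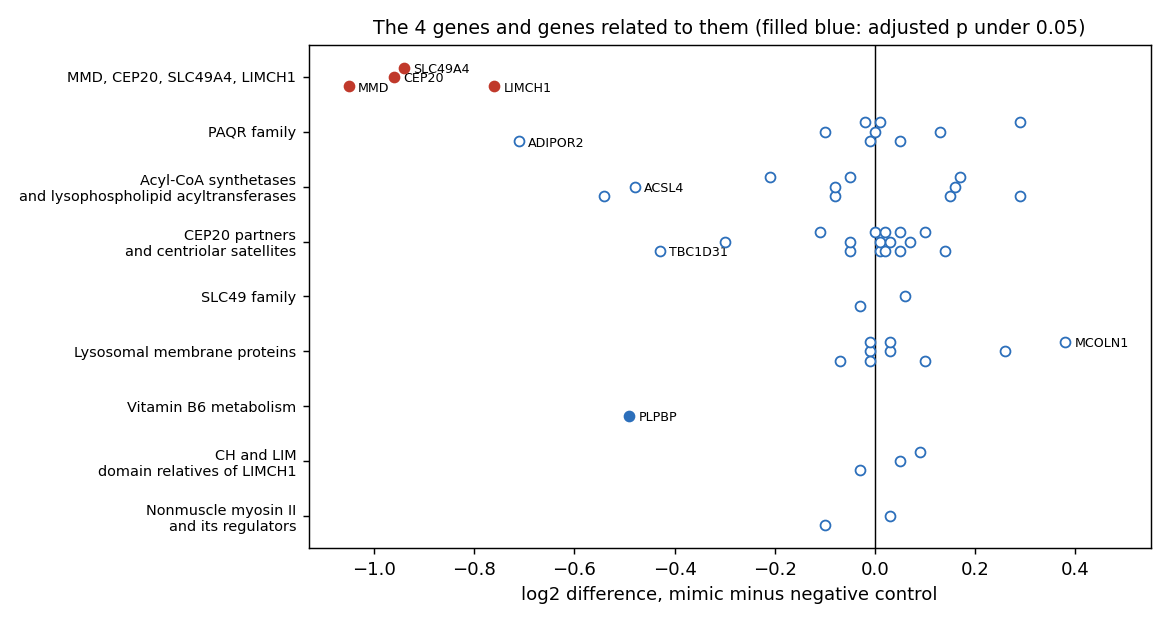
Log2 difference of mimic minus negative control (horizontal axis) for the 4 genes (red) and for each measured gene of the 8 related lists (blue, 1 point per gene, filled where limma's adjusted p was under 0.05). The 4 genes lie between -1.05 and -0.76, ADIPOR2 at -0.71 is the nearest related gene, and PLPBP is the filled blue point.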

How the data were processed

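RNA of 9 samples was measured on 9 one-colour Affymetrix Human Gene 2.0 ST arrays. The deposited table holds 1 log2 value per probeset and array, made by the authors with RMA per the submitters' processing notes. Neither the RMA version nor the probe annotation nor a genome build is named in those notes, and no probeset coordinates are printed. RMA equalises arrays jointly and compresses differences of dim probesets. No depth or detection call exists, and the number of arrays limits the precision.

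Of 53617 probesets 16098 have 1 gene symbol, 0 several and 37519 none. The brightest probeset per gene gave 14884 genes. All were fitted with limma 3.58.1 in R 4.3.3 (lmFit, eBayes, 1 mean per group, 6 residual degrees of freedom), with two-sided p-values adjusted by Benjamini-Hochberg over all genes and a threshold of 0.05. The procedure was tested on simulated data.

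The 4 members and the 8 lists of related genes were chosen with earlier results of these data known. From each list the passing genes are named, otherwise the 2 with the lowest p against the negative control, and in small families further members. CEP43, OFD1, KIAA0753, PCM1, LAMP1, LAMP2, LMO7, MBOAT7, LPCAT2, LUM and PECAM1 were named outside this rule, after their values were seen. Profile neighbours are the 3 genes with the highest Pearson's r among genes brighter than the median gene (5.44). Non-coding genes, pseudogenes and genes of unknown type were left out. Symbols with prefixes such as LOC, FLJ, KIAA and FAM were left out too, though some of them are protein-coding. The replicate numbers of the titles were not used to pair the samples in the main fit. Whether they mark pairs is unresolved: 4 of 9 same-numbered pairs had a correlation of deviations over 0.1. The 19 alternatives per comparison changed the fit, normalization, filter, probeset rule or left out 1 array. Starts and promoter sequences are RefSeq's (GRCh38.p14), and all 4 members matched.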

Additional observations from a re-analysis of the deposited data

How the results depend on the processing

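Over 19 alternatives the log2 difference of mimic against the negative control was between -1.11 and -1.02 for MMD, -1.02 and -0.90 for CEP20, -0.98 and -0.89 for SLC49A4, and -0.83 and -0.72 for LIMCH1. Against mock it was between -0.65 and -0.52, -0.87 and -0.72, -0.87 and -0.72, and -0.53 and -0.47 in the same order. Each of the 4 stayed past limma's threshold in all 19 against the negative control, while against mock CEP20 and SLC49A4 did in 9 and MMD and LIMCH1 in 7. Some passes against the negative control were narrow. The highest limma adjusted p there was 0.0349 for MMD and 0.0498 for CEP20, SLC49A4 and LIMCH1. The genes were picked from these same values, so the passes and adjusted p-values of both mimic comparisons are a description and no test. Leaving out any 1 array ended the calls of MMD (adjusted p from 0.0663 to 0.149) and LIMCH1 (0.0569 to 0.149) against mock. CEP20 then had 0.044 to 0.0848, staying past the threshold without negative control replicate 2 or mock replicate 2. SLC49A4 had 0.0341 to 0.103, staying past it without negative control replicate 2 or mock replicate 1. The negative control stood above mock by 0.40 to 0.53 for MMD, 0.10 to 0.23 for CEP20, 0.06 to 0.21 for SLC49A4 and 0.22 to 0.33 for LIMCH1, and none of the 4 passed in any of the 19 alternatives of that comparison. With the mean of both controls as the reference, an alternative chosen after seeing the data, the differences were -0.82 for MMD, -0.88 for CEP20, -0.87 for SLC49A4 and -0.63 for LIMCH1.

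The counts of genes past the threshold moved more. Against the negative control 82 genes passed, and 8 did with the 6 arrays of these groups alone, 263 with only the genes above the median level, 181 with an intensity trend, 268 with array weights and 6 over all probesets. Against mock 45 passed, and 1, 102, 78 and 3 did with the 6 arrays alone, the brighter genes, the trend and all probesets. Leaving out 1 array gave 7 to 121 genes against the negative control and 1 to 10 against mock. A replicate block (the number in the titles) left 16 genes past the threshold against the negative control and 3 against mock. With this block the limma adjusted p-values of the 4 genes were from 0.0224 to 0.0239 against the negative control and from 0.0526 to 0.0933 against mock. These too describe genes that were picked from the same values. Same-numbered arrays had correlations of their deviations from -0.112 to 0.183, differently numbered ones from -0.292 to 0.277. Each of 4 of the 9 arrays was closest to its own number in both other groups.

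Signs changed for small differences. With 1 array left out FLVCR1 ranged from -0.08 to 0.02 against the negative control and from -0.05 to 0.05 against mock, MICALL1 from -0.02 to 0.12 against the negative control and -0.16 to 0.05 against mock, MYLK from -0.04 to 0.11 against the negative control and -0.09 to 0.06 against mock and PAQR9 against mock from -0.21 to 0.17. With array weights FLVCR1 had 0.03 against mock, and MICALL1 had 0.00 and MYLK -0.02 against the negative control. With 1 array left out the ranges against the negative control were -0.09 to 0.17 for LUM, -0.05 to 0.09 for OFD1, -0.07 to 0.07 for PCM1, -0.09 to 0.03 for LAMP2, -0.11 to 0.06 for LMO7 and -0.02 to 0.01 for PAQR4. Against mock they were -0.06 to 0.08 for OFD1, -0.04 to 0.11 for PCM1, -0.03 to 0.14 for LAMP2, -0.10 to 0.07 for LMO7 and -0.19 to 0.02 for MMD2. With arrays centred on their median LUM and KIAA0753 had -0.01, CEP43 -0.01, OFD1 -0.02 and PCM1 -0.02 against the negative control. After a repeated quantile normalization LUM had -0.02, PCM1 -0.03 and LAMP1 0.00 against the negative control, and PCM1 0.00, LAMP1 -0.01 and LAMP2 -0.01 against mock. With array weights PCM1 had -0.01 against the negative control and OFD1 0.04 against mock. None of these genes passed in any of these settings. The cause was not tested for these, nor for the counts.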
